A study of Mus musculus with 16 samples.

Results

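The Wnt genes described here are 47 genes of secreted Wnt signalling, found by gene symbol among 23268 named loci of mouse embryoid bodies. They are 19 ligands, 10 Frizzled receptors, 5 secreted Frizzled-related proteins, 4 Dickkopf genes, 4 R-spondins with their receptor Lgr5, and Axin2, Lef1, Tcf7 and Sp5, which carry out or report the nuclear response. Each symbol matched exactly 1 locus. After a filter on low counts 44 members were tested, and Wnt16, Dkk2 and Dkk4 were not.

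Embryoid bodies, aggregates of embryonic stem cells, were profiled by RNA sequencing at day 6. The stem cells carried GFP knocked in at the eye field gene Rx and were aggregated by the serum-free SFEBq method in GMEM with 5% knockout serum replacement, with 2% matrigel from day 1. The 4 groups were untreated wild type (WT), clone 3 of a Wdr5 knockout without doxycycline (KO), and the same knockout with an inducible human WDR5 to which doxycycline was added at T12h (the T12h rescue) or T48h (the T48h rescue). Wdr5 encodes a scaffold subunit of histone H3 lysine methyltransferase complexes. KO, T12h and T48h groups all carry the knockout and come from this 1 clone. The labels do not say from when the 12 and 48 h are counted, or whether the KO group carries the transgene without doxycycline.

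Wnt proteins are lipid-modified secreted ligands that bind Frizzled receptors. With the co-receptors Lrp5 and Lrp6 they stabilise beta-catenin, which enters the nucleus and acts with Tcf and Lef factors, while Ror and Ryk co-receptors and the planar cell polarity proteins serve branches that do not need it. Secreted Frizzled-related proteins bind Wnts, Dickkopf proteins block the Lrp co-receptors, and R-spondins sustain the receptors at the cell surface. In the early embryo beta-catenin signalling drives the primitive streak and posterior identity, and the forebrain and eye field form where it is held low.

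CTTTGA is among the runs of letters that Tcf and Lef factors recognise, and sequence upstream of the start site is shown for 4 genes. Only CTTTGA was counted and marked, so a window without a match may hold another form. These report the nuclear response or changed widely, but they were picked by hand, and for Lef1 the window with matches was taken. Wnt6 and Sfrp2 also changed widely, and their windows, which held no match, are not shown. The printed windows thus do not stand for those of the members. RefSeq starts on GRCm38.p6 were at hand for 32 of the 47 members, in 39 windows of the 250 bases before the start. CTTTGA, read on both strands, occurred in 7 windows of 7 members, Sp5, Dkk1, Lef1, Frzb, Fzd1, Wnt5b and Wnt11. That is 17.9% of member windows, beside 13.8% of all 32851 windows of that length. Windows with 2 or more matches were 3 among the members, those of Sp5, Dkk1 and a downstream start of Lef1, and 1.37% of all windows. The other 3 Lef1 windows, farther upstream, held no match, and 229 of the 250 bases of the matching Frzb window lie in annotated exons of Frzb. A match is only a run of letters and does not show binding. Each sequence runs 5′ to 3′ toward the start, and the capitals mark CTTTGA or, on the other strand, TCAAAG.
Sp5 (chr2:70474673-70474922, plus strand): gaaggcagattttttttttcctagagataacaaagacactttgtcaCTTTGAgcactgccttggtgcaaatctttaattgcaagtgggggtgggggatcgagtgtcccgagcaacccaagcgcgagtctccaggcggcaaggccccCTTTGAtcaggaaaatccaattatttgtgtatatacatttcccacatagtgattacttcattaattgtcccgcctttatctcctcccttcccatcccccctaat
Lef1 (chr3:131156044-131156293, plus strand): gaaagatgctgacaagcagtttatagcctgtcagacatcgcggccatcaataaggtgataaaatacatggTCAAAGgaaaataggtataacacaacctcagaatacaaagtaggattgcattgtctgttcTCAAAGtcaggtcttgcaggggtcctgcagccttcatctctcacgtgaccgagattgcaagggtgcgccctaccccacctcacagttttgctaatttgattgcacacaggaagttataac
Fzd1 (chr5:4758217-4758466, minus strand): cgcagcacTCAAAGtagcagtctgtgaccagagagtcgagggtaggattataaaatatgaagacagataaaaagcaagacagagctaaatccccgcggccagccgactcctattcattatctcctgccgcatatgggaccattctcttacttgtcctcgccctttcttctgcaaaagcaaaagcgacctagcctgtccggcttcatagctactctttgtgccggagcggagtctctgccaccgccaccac
Axin2 (chr11:108920099-108920348, plus strand): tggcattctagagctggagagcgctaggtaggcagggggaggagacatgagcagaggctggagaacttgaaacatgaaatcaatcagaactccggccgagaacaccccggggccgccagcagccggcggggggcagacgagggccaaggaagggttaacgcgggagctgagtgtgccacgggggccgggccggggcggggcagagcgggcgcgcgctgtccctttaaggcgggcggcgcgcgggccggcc
The window of Axin2, the most general feedback gene of the set, held no match. For Dkk1 only the 30 bases around each match are given, because part of its window lies in an annotated first exon.
Dkk1 (chr19:30549653-30549682, minus strand): gaggggagagtgTCAAAGtcctccctgctt
Dkk1 (chr19:30549596-30549625, minus strand): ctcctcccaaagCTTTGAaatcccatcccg

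Counts per library in named genes ranged from 32474213 to 65683624. The labels give 2 biological duplicates per group, each run in duplicate, and column pairs that differed by little more than counting noise were summed, so n = 2 libraries (a and b) per group. Whether the duplicates were separate cultures is not stated, so p-values reflect library-to-library spread that could be technical. Levels are CPM (counts per unit of library size after TMM scaling), and changes are log2 fold changes ± SE from edgeR's quasi-likelihood test with adjusted p over all 16115 genes tested and a threshold of 0.05. Wdr5 itself stood at 186 and 186 CPM in WT, 32.5 and 28.4 in KO, 329 and 337 at T12h and 280.0 and 294 at T48h, where reads of the human transgene may be included. The 8 eye field markers, all detected, were high in WT and the T12h rescue and summed to 1712 and 1620 CPM in WT, 91.0 and 92.1 in KO, 1783 and 1818 at T12h and 43.3 and 39.9 at T48h. Otx2, a forebrain gene in that list, made up most of what remained in the KO, at 81.8 and 86.5 CPM against 266 and 239 in WT. The other 7 markers summed to 1446 and 1382 CPM in WT, 9.21 and 5.64 in KO, 1645 and 1685 at T12h and 21.0 and 19.0 at T48h. In these bulk samples fewer cells of a type and less RNA per cell cannot be told apart.

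KO and WT were compared to see what the knockout did to these genes, and the rescues to see how far early or late WDR5 changed them. In the KO, 13 of the 44 members tested rose and 19 fell against WT, 72.7% in all, beside 64.4% of all genes (31.9% higher and 32.5% lower). The T12h rescue against the KO had 15 higher and 18 lower, 75% beside 65% of all genes (32.9% higher and 32.2% lower). The T48h rescue against the KO had 16 higher and 20 lower, 81.8% beside 67.6% (34.3% higher and 33.3% lower). Between the rescues 21 members were higher and 16 lower at T48h, 84.1% beside 50.4% (25% higher and 25.4% lower).

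Against WT the T12h rescue had 8 members higher and 17 lower, 56.8% of those tested beside 14.3% of all genes (8.04% higher and 6.22% lower). Their median log2 fold change was -0.67, and that of all genes was -0.0033. This count rests on few libraries. It was 13 without WT library a, 13 without T12h library a, 15 without T12h library b and 17 without WT library b, while the count over all genes fell from 2299 to 1099, 1269, 1362 and 1585. With upper-quartile scaling 4 members were higher and 17 lower. The T48h rescue against WT had 16 higher and 18 lower, 77.3% beside 47.6% of all genes (24% higher and 23.5% lower). With upper-quartile scaling the genes called there split into 3066 higher and 4807 lower, against 3875 and 3791. The members divide evenly by where they were highest, with 10 of the 44 highest in WT, 12 in KO, 10 at T12h and 12 at T48h.

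The leading ligands of the KO and of the T48h rescue were not those of WT. Summed over the 19 genes on the FPKM scale, which allows for transcript length, ligand transcripts came to 49.9 ± 4.33 in WT, 66.1 ± 5.34 in KO, 38.3 ± 1.59 at T12h and 56.5 ± 0.711 at T48h (SD, n = 2 each). In WT the leading ligands were Wnt5b, Wnt7b and Wnt8b with 78.7% of the sum. In the KO they were Wnt8a, Wnt6 and Wnt3 with 75.1%, and in the T48h rescue Wnt2, Wnt5a and Wnt11 with 73.8%. In the T12h rescue Wnt5b alone made up 74.7%. No leading ligand of the KO was among the leading ligands of another group.

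**Figure D1:**
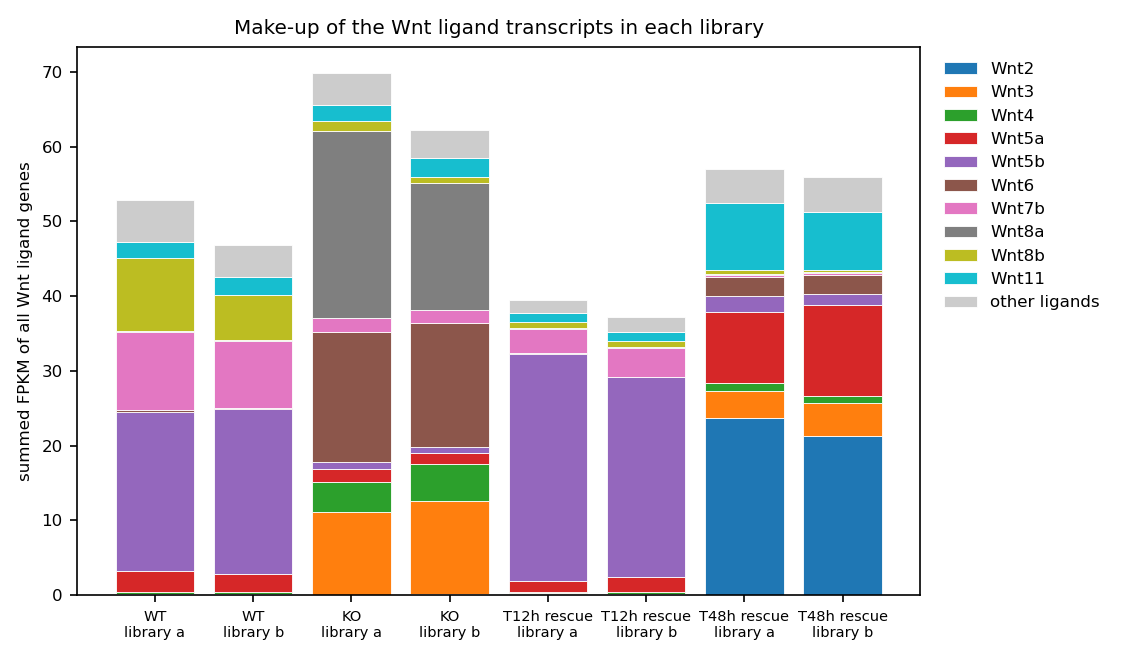
Summed FPKM of the 19 Wnt ligand genes in each of the 8 libraries, as stacked bars, with the 10 ligands that reached 4 FPKM in a group named and the rest in light grey. Both libraries of a group have the same leading ligands, and Wnt5b leads in WT and the T12h rescue, Wnt8a in the KO and Wnt2 in the T48h rescue.

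Among the 18 ligands tested, 7 rose and 5 fell in the KO, and the 66.7% that passed the test lie near the 64.4% of all genes. Wnt3, which the embryo needs to form the primitive streak, stood at 0.333 and 0.356 CPM in WT, 37.2 and 41.5 in KO, 0.352 and 0.264 at T12h and 13.0 and 16.2 at T48h. It was low in WT and the T12h rescue and high in the KO, with the T48h rescue between. Its change was 6.82 ± 0.25 (adjusted p = 4.13e-11) from WT to KO and -1.43 ± 0.17 (adjusted p = 3.93e-06) from KO to the T48h rescue.

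Wnt8a, an early ligand of the streak and of posterior mesoderm, stood at 0.250 and 0.327 CPM in WT, 38.3 and 25.8 in KO, 0.185 and 0.110 at T12h and 0.163 and 0.0736 at T48h. Only the KO libraries were high, and the change from WT was 6.79 ± 0.34 (adjusted p = 9.75e-10). In contrast to Wnt3, the T48h rescue showed no more of it than WT, at a change from WT of -1.28 ± 0.58 (adjusted p = 0.0881).

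Wnt6, an ectodermal ligand, stood at 0.777 and 0.327 CPM in WT, 37.8 and 35.4 in KO, 0.204 and 0.220 at T12h and 5.75 and 5.81 at T48h. Its order, KO above T48h above WT above T12h, held with no overlap between neighbouring groups. Wnt6 changed by 6.03 ± 0.28 (adjusted p = 4.72e-10) in the KO and remained above WT at T48h by 3.37 ± 0.28 (adjusted p = 2.89e-07). Its lower level at T12h than in WT, -1.39 ± 0.41 (adjusted p = 0.0393), was lost without WT library a, at -0.62 (adjusted p = 0.647), without T12h library a, at -1.33 (adjusted p = 0.178), without T12h library b, at -1.44 (adjusted p = 0.12), and under 4 alternatives with all libraries, with adjusted p from 0.148 to 0.359.

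Wnt4, known for kidney and gonad development, stood at 1.30 and 1.40 CPM in WT, 16.9 and 20.9 in KO, 0.944 and 1.15 at T12h and 4.38 and 3.90 at T48h. It had the same order of groups as Wnt6, with 3.80 ± 0.26 (adjusted p = 1.79e-08) in the KO and 1.62 ± 0.25 (adjusted p = 0.000121) at T48h against WT. Wnt10a, a ligand of tooth and skin, had 300 counts in KO, 2 in WT, 0 at T12h and 9 at T48h. The KO to WT ratio was 99.3 with a 95% counting interval of 27.3 to 824. With 3 counts over the group taken as the floor of the T12h rescue, the KO was 94.4-fold above it. Wnt2b, a ligand of the ciliary margin of the eye, was at 2.69 and 3.59 CPM in the KO and 0.617 to 1.50 elsewhere. Its rise in the KO, 1.19 ± 0.46 (adjusted p = 0.0355), was lost without KO library b, at 0.96 (adjusted p = 0.147), and without either WT library, at 1.14 (adjusted p = 0.156) without a and 1.18 (adjusted p = 0.143) without b.

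Beside these ligands that were high in the KO, summed markers of the primitive streak (8 of 8 detected) stood at 108.9 and 99.8 CPM in the KO against 7.96 and 7.03 in WT, 3.33 and 3.83 at T12h, where Mixl1 and Mesp1 were at 0, and 20.5 and 23.0 at T48h. The pluripotency markers (6 of 6) summed to 1094 and 1032 CPM in the KO, 501 and 487 in WT, 400 and 403 at T12h and 171 and 183 at T48h. Sox2, which neural cells also express, went the other way, at 308 and 299 CPM in WT, 127 and 117 in KO, 292 and 296 at T12h and 14.6 and 13.3 at T48h. The other 5 summed to 966.9 and 915.2 CPM in the KO, 193.1 and 187.9 in WT, 107.3 and 107.2 at T12h and 156.2 and 169.2 at T48h. Endoderm markers (6 of 6) summed to 348.6 and 350 CPM in the KO, 118.1 and 112 in WT, 107.1 and 125.6 at T12h and 317.1 and 322.9 at T48h. In the KO against WT 4 of these 6 were higher and 2 lower, beside 31.9% and 32.5% of all genes. The part of these cells in the ligand levels was not tested.

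**Figure D2:**
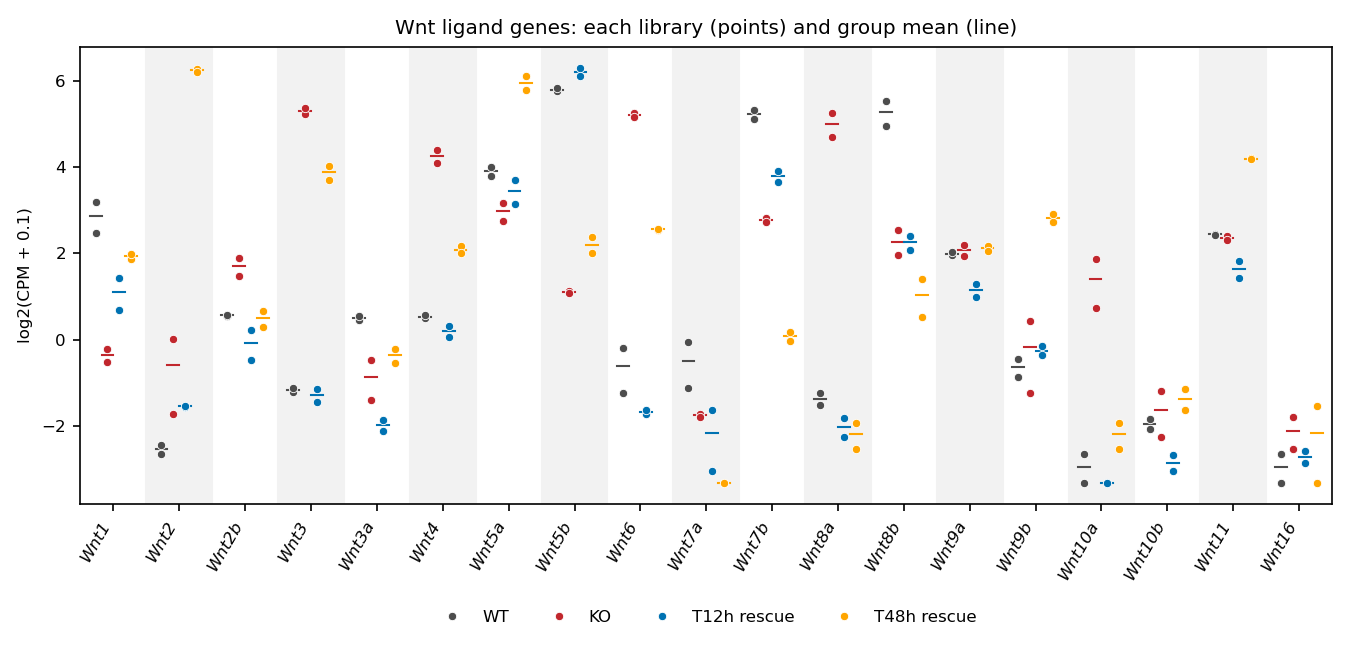
Level of each Wnt ligand gene as log2(CPM + 0.1) on the vertical axis, with a point for each of the 2 libraries per group and a line at the group mean. The KO points of Wnt3, Wnt4, Wnt6, Wnt8a and Wnt10a lie above all other groups, those of Wnt5b, Wnt7b and Wnt8b lie far below WT, and Wnt2, Wnt5a, Wnt9b and Wnt11 are highest at T48h.

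Ligands of WT fell in the KO and came back unequally at T12h. Wnt5b, a ligand that mostly acts without beta-catenin, stood at 53.9 and 56.8 CPM in WT, 2.09 and 2.02 in KO, 78.8 and 69.0 at T12h and 5.07 and 3.92 at T48h. The WT and T12h libraries were high and the KO and T48h libraries low. Wnt5b fell by 4.74 ± 0.16 on the log2 scale (adjusted p = 1.78e-11) in the KO and was 5.16 ± 0.16 (adjusted p = 7.76e-12) higher at T12h than in the KO.

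Wnt7b, a forebrain ligand, stood at 40.1 and 34.6 CPM in WT, 6.91 and 6.53 in KO, 12.4 and 14.9 at T12h and 1.03 and 0.883 at T48h. The 4 groups did not overlap, and T12h stood between the KO and WT, 1.02 ± 0.16 (adjusted p = 9.76e-05) above the KO and -1.45 ± 0.16 (adjusted p = 6.22e-05) against WT. Wnt8b, a ligand of the dorsal forebrain, stood at 45.8 and 31.0 CPM in WT, 5.68 and 3.78 in KO, 5.20 and 4.14 at T12h and 2.56 and 1.35 at T48h. Its T12h libraries overlapped those of the KO, with a difference of -0.03 ± 0.28 (adjusted p = 0.928). Against WT, the change of Wnt8b was -3.04 ± 0.29 (adjusted p = 1.83e-05) at T12h and -4.30 ± 0.31 (adjusted p = 6.18e-08) at T48h.

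Wnt1, the ligand of the midbrain and hindbrain boundary, stood at 9.07 and 5.40 CPM in WT, 0.600 and 0.755 in KO, 1.52 and 2.60 at T12h and 3.54 and 3.87 at T48h. Both rescues lay between the KO and WT. It changed by -3.43 ± 0.41 (adjusted p = 5.75e-06) in the KO and by 1.61 ± 0.40 (adjusted p = 0.00303) from the KO to T12h. Its lower level at T12h than in WT, -1.82 ± 0.37 (adjusted p = 0.00478), was lost without WT library a, at -1.39 (adjusted p = 0.118), and without T12h library a, at -1.48 (adjusted p = 0.0623). The lower level at T48h, -0.96 ± 0.36 (adjusted p = 0.0418), was lost without WT library a, at -0.59 (adjusted p = 0.379), and without either T48h library, at -0.90 (adjusted p = 0.127) without a and -1.04 (adjusted p = 0.0771) without b, and under 3 alternatives with all libraries, with adjusted p from 0.0530 to 0.0935.

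Midbrain and hindbrain markers (7 of 7 detected) were led by Pax2 and summed to 145.7 and 144.2 CPM in WT, 31.6 and 33.6 in the KO, 206.0 and 192.8 at T12h and 15.6 and 13.9 at T48h. The sums do not stand for each marker. In the KO against WT 2 of the 7 were higher, 2 lower and 3 did not pass, beside 31.9% and 32.5% of all genes. The median log2 fold change of the 7 there was 0.94. At T48h against WT 1 was higher, 2 were lower and 4 did not pass. At T12h against WT 1 of the 7 was past the test as higher, 2 as lower and 4 did not pass. The 2 lower ones were the boundary genes En1 and En2, named after their values were seen. En1 was at 5.19 and 2.73 CPM in WT and 0.167 and 0.749 at T12h, and En2 at 5.55 and 3.00 and 0.592 and 0.331. Their part in the Wnt1 levels was not tested.

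Another set of ligands was highest in the T48h rescue. Wnt2, a ligand of early heart and lung mesoderm, stood at 0.0832 and 0.0594 CPM in WT, 0.205 and 0.917 in KO, 0.241 and 0.242 at T12h and 77.3 and 74.0 at T48h. Every T48h library was far above every other, with a change of 7.29 ± 0.36 (adjusted p = 5.85e-10) from the KO. The difference of Wnt2 between KO and WT, both under 1 CPM, 2.70 ± 0.79 (adjusted p = 0.00895), was lost without KO library b, at 1.47 (adjusted p = 0.057), and without WT library b, at 2.46 (adjusted p = 0.0539), and with limma on FPKM, with adjusted p of 0.0736 and 0.377.

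Wnt5a, a main ligand of planar polarity and cell movement, stood at 16.0 and 13.7 CPM in WT, 8.92 and 6.66 in KO, 8.75 and 12.8 at T12h and 54.9 and 69.1 at T48h. It was highest at T48h, 2.06 ± 0.20 (adjusted p = 1.16e-06) above WT, and lower in the KO than in WT, at -0.92 ± 0.20 (adjusted p = 0.00127). Wnt11, a ligand of cell movement and heart development, stood at 5.35 and 5.28 CPM in WT, 5.17 and 4.83 in KO, 2.57 and 3.42 at T12h and 18.4 and 18.1 at T48h. WT and KO differed by -0.09 ± 0.21 (adjusted p = 0.73), and T48h was 1.78 ± 0.21 (adjusted p = 8.17e-06) above WT. Its lower level at T12h than in WT, -0.83 ± 0.21 (adjusted p = 0.0187), was lost without T12h library a, at -0.64 (adjusted p = 0.174), without WT library a, at -0.82 (adjusted p = 0.108), and without WT library b, at -0.85 (adjusted p = 0.0726), and with 1 technical column per library (adjusted p = 0.149). Wnt9b, a kidney and facial ligand, stood at 0.638 and 0.445 CPM in WT, 1.25 and 0.324 in KO, 0.796 and 0.683 at T12h and 6.48 and 7.38 at T48h, and only T48h stood apart, 3.67 ± 0.56 (adjusted p = 9.84e-05) above WT.

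Markers of heart and lateral mesoderm (9 of 9 detected) summed to 2937 and 2880 CPM at T48h against 98.2 to 244.7 in the other libraries. Endothelial markers (5 of 5) were at 764.6 and 731.8 against 93.4 to 147.9, neural crest markers (6 of 6) at 282.7 and 252.3 against 23.6 to 44.1, and fibroblast markers (8 of 8, with Dcn at 0 at T12h) at 895.6 and 964.8 against 19.0 to 130.2. Endoderm markers (6 of 6) were at 317.1 and 322.9 at T48h, beside 348.6 and 350 in the KO and 107.1 to 125.6 in the WT and T12h libraries. The near-equal endoderm sums hide changes, as 2 of the 6 were higher and 4 lower at T48h than in the KO. Neural crest markers had 4 higher and 1 lower there, and fibroblast markers 5 higher and 1 lower. Of all genes 34.3% were higher and 33.3% lower. The part of all these cells in the T48h ligand levels was not tested.

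The remaining ligands were low. Wnt9a, a ligand of joints and cartilage, ranged from 1.89 and 2.36 CPM at T12h to 4.41 and 4.07 at T48h, and WT and KO overlapped. Wnt3a, a ligand of the tailbud, was at 1.28 and 1.36 CPM in WT, 0.278 and 0.621 in the KO and 0.130 and 0.176 at T12h. Its difference between T12h and WT, -3.09 ± 0.78 (adjusted p = 0.0173), was lost when any 1 of those 4 libraries was left out, with adjusted p from 0.0948 to 0.145. Wnt7a had 43 counts in WT, 21 in the KO, 13 at T12h and 0 at T48h. With 3 counts taken as the floor of T48h, WT was 15.9-fold and the KO 5.15-fold above it. The error of the WT and KO counts is left out of these ratios. The call of T48h against the KO was lost with limma on FPKM (adjusted p = 0.119 and 0.333) and without either T48h library. That of T48h against WT was lost without WT library a. Wnt10b changed past the test in none of the 6 comparisons, at 0.0220 to 0.354 CPM, and Wnt16, not tested, was at 0 to 0.245 CPM.

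Wnt genes often sit side by side, and 4 pairs of members lay within 100000 bases of each other on mm10. Wnt6 and Wnt10a on chromosome 1, with 6699 bases between them, were both highest in the KO. Wnt6 was next highest at T48h. For Wnt10a, with 9 counts at T48h and 2 in WT, those groups did not differ past edgeR's test (adjusted p = 0.243). Wnt3 and Wnt9b on chromosome 11, with 24353 bases between them, differed. Wnt3 was highest in the KO and Wnt9b at T48h. Of the other pairs, Wnt1 and Wnt10b on chromosome 15 (11706 bases) and Wnt3a and Wnt9a on chromosome 11 (16178 bases), Wnt10b and Wnt9a had no group above all others, since their KO and T48h libraries overlapped.

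Of the 10 Frizzled receptors 7 fell in the KO, 1 rose and 2 did not pass, beside 32.5% of all genes lower and 31.9% higher. One of the 7 is Fzd6, whose call did not hold under several settings. The median log2 fold change of the receptors was -1.55, and that of all genes 0.0041. Summed FPKM of the 10 receptors was 225.6 ± 9.44 in WT, 90.6 ± 0.766 in the KO, 260.7 ± 4.47 at T12h and 125.4 ± 7.70 at T48h (SD, n = 2 each). Fzd5, the receptor of the eye field, and Fzd3, known for axon guidance, led with Fzd2 in WT. Fzd7, a main receptor of stem cells, led in the KO with 38.1% of the sum and at T48h with 41.1%.

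Fzd5 stood at 409 and 432 CPM in WT, 65.6 and 65.0 in KO, 518 and 488 at T12h and 6.81 and 7.92 at T48h. WT and T12h were high, the KO lower and T48h lower still. Fzd5 fell by 2.69 ± 0.08 on the log2 scale (adjusted p = 6.78e-12) in the KO, and the change from the KO to T48h was -3.15 ± 0.09 (adjusted p = 3.82e-12). Fzd8, a forebrain receptor, stood at 113 and 117 CPM in WT, 18.5 and 15.5 in KO, 144 and 143 at T12h and 9.15 and 8.04 at T48h, in the same order of groups. Its change was -2.75 ± 0.10 (adjusted p = 5.64e-11) in the KO and -0.99 ± 0.11 (adjusted p = 2.39e-06) from the KO to T48h.

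Fzd3 stood at 529 and 568 CPM in WT, 26.6 and 22.8 in KO, 712 and 718 at T12h and 83.9 and 98.7 at T48h. It had the strongest fall of the receptors in the KO, -4.47 ± 0.10 (adjusted p = 8.98e-13), and at T48h it lay between KO and WT. Fzd1, a receptor that acts with beta-catenin, stood at 167 and 183 CPM in WT, 21.9 and 22.0 in KO, 253 and 244 at T12h and 41.3 and 38.3 at T48h, and Fzd2, a receptor also used in planar polarity, at 138 and 152 CPM in WT, 55.0 and 55.9 in KO, 175 and 172 at T12h and 120.1 and 127 at T48h. Both fell in the KO, at -3.00 ± 0.08 (adjusted p = 5.12e-12) and -1.39 ± 0.08 (adjusted p = 3.04e-09), and both were higher at T48h than in the KO, by 0.86 ± 0.08 (adjusted p = 5.79e-07) and 1.16 ± 0.08 (adjusted p = 1.51e-08). Fzd2 was close to WT at T48h, and the remaining difference, -0.23 ± 0.08 (adjusted p = 0.0233), was lost without WT library b, at -0.21 (adjusted p = 0.114), and without T48h library a, at -0.19 (adjusted p = 0.144).

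The T12h rescue stood slightly above WT for 5 receptors. The difference of Fzd1 was 0.50 ± 0.08 (adjusted p = 0.000599) and kept its call when any library was left out. Those of Fzd2, Fzd3, Fzd5 and Fzd8 were 0.26, 0.38, 0.26 and 0.32. With all libraries kept, upper-quartile scaling lost the edgeR calls of Fzd2 (adjusted p = 0.075), Fzd5 (adjusted p = 0.0606) and Fzd8 (adjusted p = 0.0546). Both limma fits on FPKM lost these 3 as well. Limma on log2(FPKM + 0.1) also lost Fzd3 (adjusted p = 0.0676). The calls of Fzd2, Fzd5 and Fzd8 were lost when any 1 of the 4 libraries was left out, with adjusted p from 0.0540 to 0.374. That of Fzd3 was lost without T12h library a (adjusted p = 0.0561), T12h library b (adjusted p = 0.0618) or WT library a (adjusted p = 0.106).

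Fzd4, a receptor of blood vessels that also binds Norrin, stood at 56.4 and 54.5 CPM in WT, 14.4 and 19.8 in KO, 18.1 and 18.5 at T12h and 171 and 196 at T48h. The KO and T12h libraries overlapped, WT was higher and T48h highest. Fzd4 fell by 1.71 ± 0.13 on the log2 scale (adjusted p = 5.71e-08) in the KO, differed by 0.11 ± 0.13 (adjusted p = 0.475) between T12h and the KO, and stood 1.73 ± 0.12 (adjusted p = 5e-08) above WT at T48h. Fzd7 stood at 186 and 197 CPM in WT, 188 and 179 in KO, 149.9 and 149 at T12h and 273 and 309.5 at T48h. WT and KO overlapped, at a difference of -0.06 ± 0.08 (adjusted p = 0.537), and T48h was 0.61 ± 0.08 (adjusted p = 1.77e-05) above WT.

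Fzd10, a receptor of the posterior neural tube, was the receptor that rose in the KO. It stood at 8.35 and 6.56 CPM in WT, 57.1 and 61.9 in KO, 4.72 and 4.47 at T12h and 10.5 and 11.1 at T48h, and the KO libraries lay far above all others, with 2.99 ± 0.16 (adjusted p = 1.36e-09) against WT. From the KO its change was -3.69 ± 0.16 (adjusted p = 2.11e-10) to T12h and -2.46 ± 0.15 (adjusted p = 5.75e-09) to T48h.

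Fzd6, a polarity receptor of skin, stood at 14.9 and 13.6 CPM in WT, 9.36 and 11.6 in KO, 15.3 and 18.0 at T12h and 6.67 and 5.32 at T48h. It was lower at T48h than in WT, at -1.25 ± 0.19 (adjusted p = 0.000106). Its fall in the KO, -0.45 ± 0.19 (adjusted p = 0.0481), was lost under 8 of the alternatives with all libraries, with adjusted p from 0.0543 to 0.146, and without WT library a, at -0.40 (adjusted p = 0.182), WT library b, at -0.54 (adjusted p = 0.0687), or KO library a, at -0.31 (adjusted p = 0.217). Fzd9 was low, at 4.02 and 2.85 CPM in WT and 0.490 and 1.15 at T48h, a difference of -2.05 ± 0.45 (adjusted p = 0.00199).

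**Figure D3:**
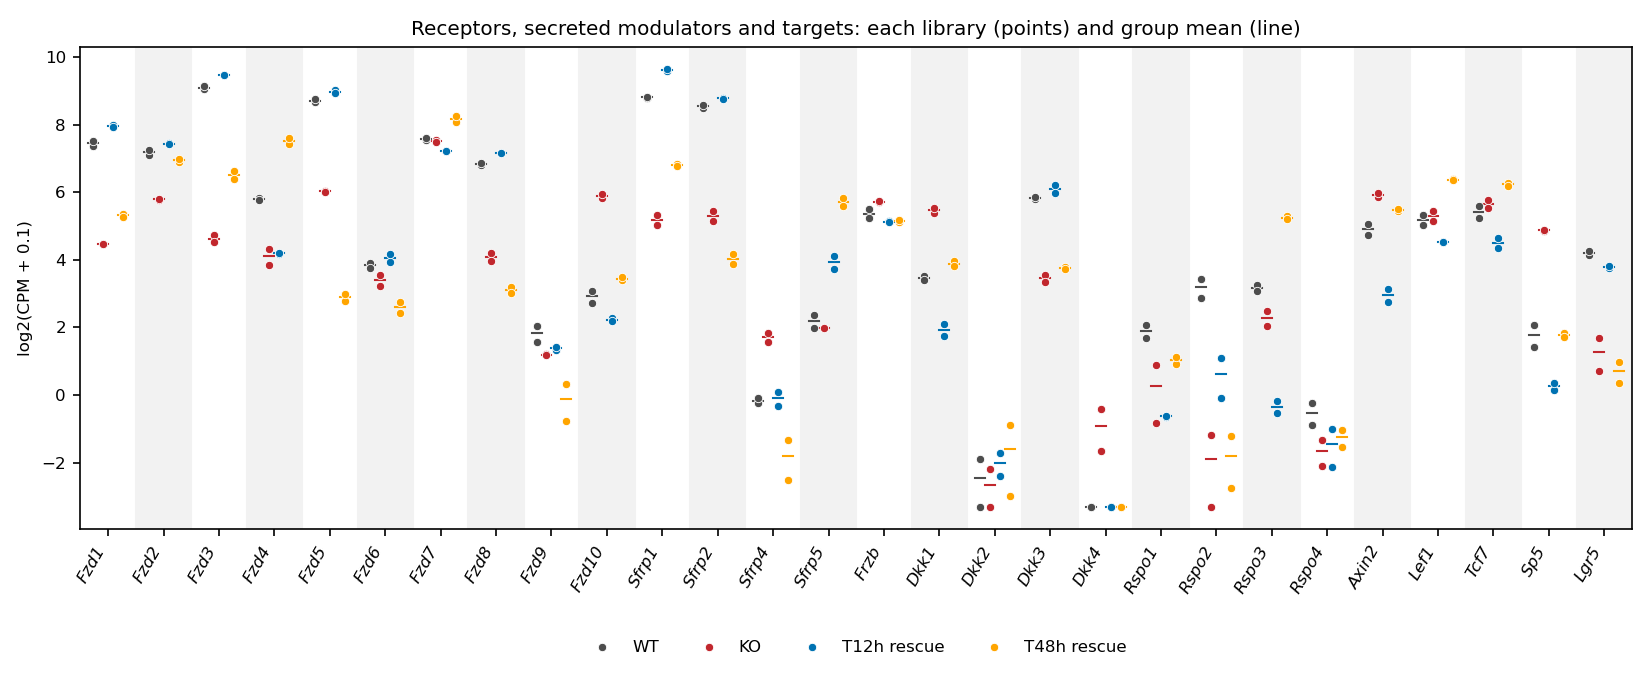
Level of each Frizzled receptor, secreted modulator and target gene as log2(CPM + 0.1) on the vertical axis, with a point for each of the 2 libraries per group and a line at the group mean. For Fzd1, Fzd3, Fzd5, Fzd8, Sfrp1, Sfrp2 and Dkk3 the WT and T12h points lie together above the KO points, and for Axin2, Dkk1, Sp5 and Rspo3 the T12h points are the lowest.

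The 5 genes of secreted Frizzled-related proteins had more transcripts in WT than the 10 receptors together. They summed to 274.8 ± 8.43 FPKM in WT, 47.0 ± 3.59 in the KO, 374.2 ± 2.71 at T12h and 65.4 ± 2.93 at T48h (SD, n = 2 each). Sfrp1, expressed in the optic vesicle and forebrain, stood at 447 and 451 CPM in WT, 40.0 and 32.9 in KO, 774 and 806 at T12h and 116 and 109 at T48h. All 4 groups were separate, and T12h was above WT by 0.81 ± 0.08 (adjusted p = 3.22e-05). Sfrp1 fell by 3.62 ± 0.09 on the log2 scale (adjusted p = 2.11e-12) in the KO. The gene lies on chromosome 8. TMM scaling without that chromosome shifted the median of all genes by 0.013 in the KO, 0.0116 at T12h and 0.0118 at T48h, all against WT. For T12h against the KO the shift was 0.00214. These shifts concern the scaling of all genes and not the level of Sfrp1 itself. The part of a difference between the clone and WT on that chromosome in the Sfrp1 levels was not tested.

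Sfrp2, expressed in the early eye and neural tube, stood at 365 and 386 CPM in WT, 43.6 and 35.3 in KO, 443 and 437 at T12h and 14.6 and 18.1 at T48h. Its fall in the KO was -3.24 ± 0.11 (adjusted p = 2.23e-11), its T12h level differed from WT by 0.23 ± 0.10 (adjusted p = 0.155), and at T48h it was below the KO, at -1.28 ± 0.11 (adjusted p = 2.30e-07). The levels of Sfrp1 and Sfrp2, like those of Fzd1, Fzd3, Fzd5 and Fzd8, were high in the libraries with high eye field markers, and the part of eye field cells in them was not tested.

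Sfrp5, a gene of foregut and heart progenitors, stood at 3.86 and 5.08 CPM in WT, 3.85 and 3.88 in KO, 13.1 and 17.1 at T12h and 57.4 and 47.8 at T48h. WT and KO overlapped, T12h was higher by 1.76 ± 0.19 (adjusted p = 5.13e-05) than WT, and T48h higher still, by 3.56 ± 0.19 (adjusted p = 2.78e-09). Frzb, another Wnt-binding member of the family, stood at 37.5 and 45.0 CPM in WT, 52.4 and 53.1 in KO, 35.5 and 34.4 at T12h and 34.6 and 36.0 at T48h. T12h and T48h overlapped. Its rise in the KO was 0.35 ± 0.11 (adjusted p = 0.0116) and was lost without WT library a, at 0.20 (adjusted p = 0.22). Sfrp4 was low, with 3.47 and 2.86 CPM in the KO and 0.0736 to 0.962 elsewhere. Its rise in the KO was 2.00 ± 0.56 (adjusted p = 0.00694) and was lost without WT library a, at 1.90 (adjusted p = 0.0603).

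The Dickkopf genes went in opposite directions. Dkk1, the head-inducing inhibitor of Lrp co-receptors and itself a target of beta-catenin, stood at 11.4 and 10.4 CPM in WT, 41.6 and 46.7 in KO, 3.28 and 4.16 at T12h and 15.5 and 13.9 at T48h. The groups did not overlap, with KO highest and T12h lowest. Dkk1 rose by 2.02 ± 0.16 (adjusted p = 8.73e-08) in the KO and was lower at T12h than in WT, at -1.56 ± 0.17 (adjusted p = 5.27e-05). At T48h it was near WT. The difference there, 0.43 ± 0.16 (adjusted p = 0.038), was lost without WT library a, at 0.45 (adjusted p = 0.111), without WT library b, at 0.31 (adjusted p = 0.275), and without T48h library a, at 0.35 (adjusted p = 0.166). It was also lost under 4 alternatives with all libraries, with adjusted p of 0.0551 or more.

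Dkk3, a divergent relative that does not act through the Lrp co-receptors, stood at 55.6 and 57.6 CPM in WT, 11.7 and 10.1 in KO, 74.3 and 63.6 at T12h and 13.7 and 13.1 at T48h. It followed the eye field libraries, with -2.37 ± 0.12 (adjusted p = 1.44e-09) in the KO and 2.66 ± 0.12 (adjusted p = 4.51e-10) from the KO to T12h. Of the 2 untested genes, Dkk4 had 39 counts in the KO and 0 in the other groups. Dkk4 lies on chromosome 8, like Sfrp1, and the part of that chromosome in its counts was not tested. With 3 counts taken as the floor of each other group, the KO was 8.61-fold above WT, 12.3-fold above T12h and 9.56-fold above T48h. Dkk2 was at 0 to 0.436 CPM.

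R-spondins and Lgr5 fell in the KO, with 4 of 5 lower and none higher, beside 32.5% of all genes lower. Rspo3, a gene of heart and vessel development, stood at 9.46 and 8.31 CPM in WT, 4.04 and 5.56 in KO, 0.777 and 0.595 at T12h and 39.0 and 36.7 at T48h. The groups did not overlap. Rspo3 fell by 0.90 ± 0.19 on the log2 scale (adjusted p = 0.000994) in the KO, changed by -2.78 ± 0.24 (adjusted p = 1.81e-07) from the KO to T12h, and stood 2.09 ± 0.19 (adjusted p = 5.76e-07) above WT at T48h. Rspo2, known in limb and lung, stood at 10.8 and 7.24 CPM in WT, 0.337 and 0 in KO, 2.02 and 0.837 at T12h and 0.327 and 0.0490 at T48h, with WT the only high group. Its change was -5.49 ± 0.84 (adjusted p = 5.80e-05) in the KO and -5.60 ± 0.87 (adjusted p = 0.000114) at T48h against WT. Its higher level at T12h than in the KO, 2.84 ± 0.81 (adjusted p = 0.00707), was lost without T12h library a, at 2.10. The call was also lost with DESeq2, at 2.99 (adjusted p = 0.0893), and limma on log2(FPKM + 1) (adjusted p = 0.0635). The difference of Rspo2 between T12h and WT, -2.65 ± 0.69 (adjusted p = 0.0207), was lost with DESeq2 (adjusted p = 0.254). Leaving out T12h library b, WT library a or WT library b also lost it, at -2.16, -2.34 and -2.92.

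Rspo1, known for ovary development, was at 4.11 and 3.12 CPM in WT and 0.537 and 0.551 at T12h. The difference, -2.73 ± 0.58 (adjusted p = 0.00604), was lost without WT library a, at -2.51 (adjusted p = 0.0581), and without T12h library a, at -2.71 (adjusted p = 0.0514). The fall of Rspo1 in the KO, -1.67 ± 0.54 (adjusted p = 0.016), was lost without KO library b, at -1.04 (adjusted p = 0.0758), and without WT library a, at -1.49 (adjusted p = 0.0994). Rspo4 was at 0.130 to 0.742 CPM and passed the test in none of the 6 comparisons. Lgr5, an R-spondin receptor and stem cell marker, stood at 17.7 and 19.1 CPM in WT, 3.13 and 1.54 in KO, 13.5 and 14.0 at T12h and 1.88 and 1.18 at T48h. KO and T48h overlapped at a low level. Lgr5 fell by 2.94 ± 0.29 on the log2 scale (adjusted p = 9.34e-07) in the KO and differed by -0.42 ± 0.26 (adjusted p = 0.345) between T12h and WT.

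The nuclear effectors and targets Axin2, Lef1, Tcf7 and Sp5 were lowest at T12h. All 4 were below WT there and below the KO, beside 6.22% and 32.2% of all genes, and all 4 were higher at T48h than at T12h, beside 25%. These 4 do not stand for all Wnt targets. Of 9 other target genes tested, listed further below, 2 were lower at T12h than in WT and 7 did not pass. Against the KO 3 of those 9 were higher at T12h and 4 lower, and between the rescues 2 were higher and 2 lower at T48h. Axin2, the feedback gene that reports beta-catenin signalling in most tissues, stood at 33.6 and 26.8 CPM in WT, 58.1 and 62.6 in KO, 6.59 and 8.77 at T12h and 43.2 and 45.2 at T48h. The groups did not overlap. Axin2 was higher in the KO than in WT by 1.00 ± 0.14 (adjusted p = 3.30e-05) and lower at T12h than in WT, at -1.98 ± 0.15 (adjusted p = 4.05e-06). At T48h it was between KO and WT, 0.55 ± 0.14 (adjusted p = 0.00607) above WT, a call that was lost without WT library b, at 0.34 (adjusted p = 0.144). The difference of Axin2 from the KO at T48h, -0.45 ± 0.14 (adjusted p = 0.0119), was lost without KO library b, at -0.39 (adjusted p = 0.0671), and without T48h library a, at -0.40 (adjusted p = 0.0716).

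Sp5, a direct beta-catenin target with matches to CTTTGA in the upstream window shown above, stood at 4.08 and 2.58 CPM in WT, 29.1 and 29.7 in KO, 0.999 and 1.19 at T12h and 3.46 and 3.19 at T48h. It was high in the KO, 3.14 ± 0.23 (adjusted p = 4.30e-08) above WT, and lowest at T12h, -1.61 ± 0.25 (adjusted p = 0.000774) against WT. WT and T48h overlapped. The order of Sp5 across groups was that of Dkk1 and Axin2 at both ends.

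Lef1, a nuclear partner of beta-catenin and also its target, stood at 39.8 and 32.4 CPM in WT, 43.2 and 35.7 in KO, 22.8 and 23.2 at T12h and 83.6 and 82.2 at T48h, and Tcf7, a further partner, at 48.4 and 37.5 CPM in WT, 54.6 and 46.2 in KO, 20.3 and 25.0 at T12h and 78.2 and 73.2 at T48h. For both, WT and KO overlapped, T12h was lowest and T48h highest. Lef1 was -0.65 ± 0.12 (adjusted p = 0.00283) at T12h and 1.20 ± 0.12 (adjusted p = 1.99e-06) at T48h against WT, and Tcf7 -0.93 ± 0.14 (adjusted p = 0.00061) and 0.82 ± 0.14 (adjusted p = 0.000244). The high T48h levels of Lef1 and Tcf7 were found in the libraries with high mesoderm and endothelial markers, and the part of those cells was not tested.

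**Figure D4:**
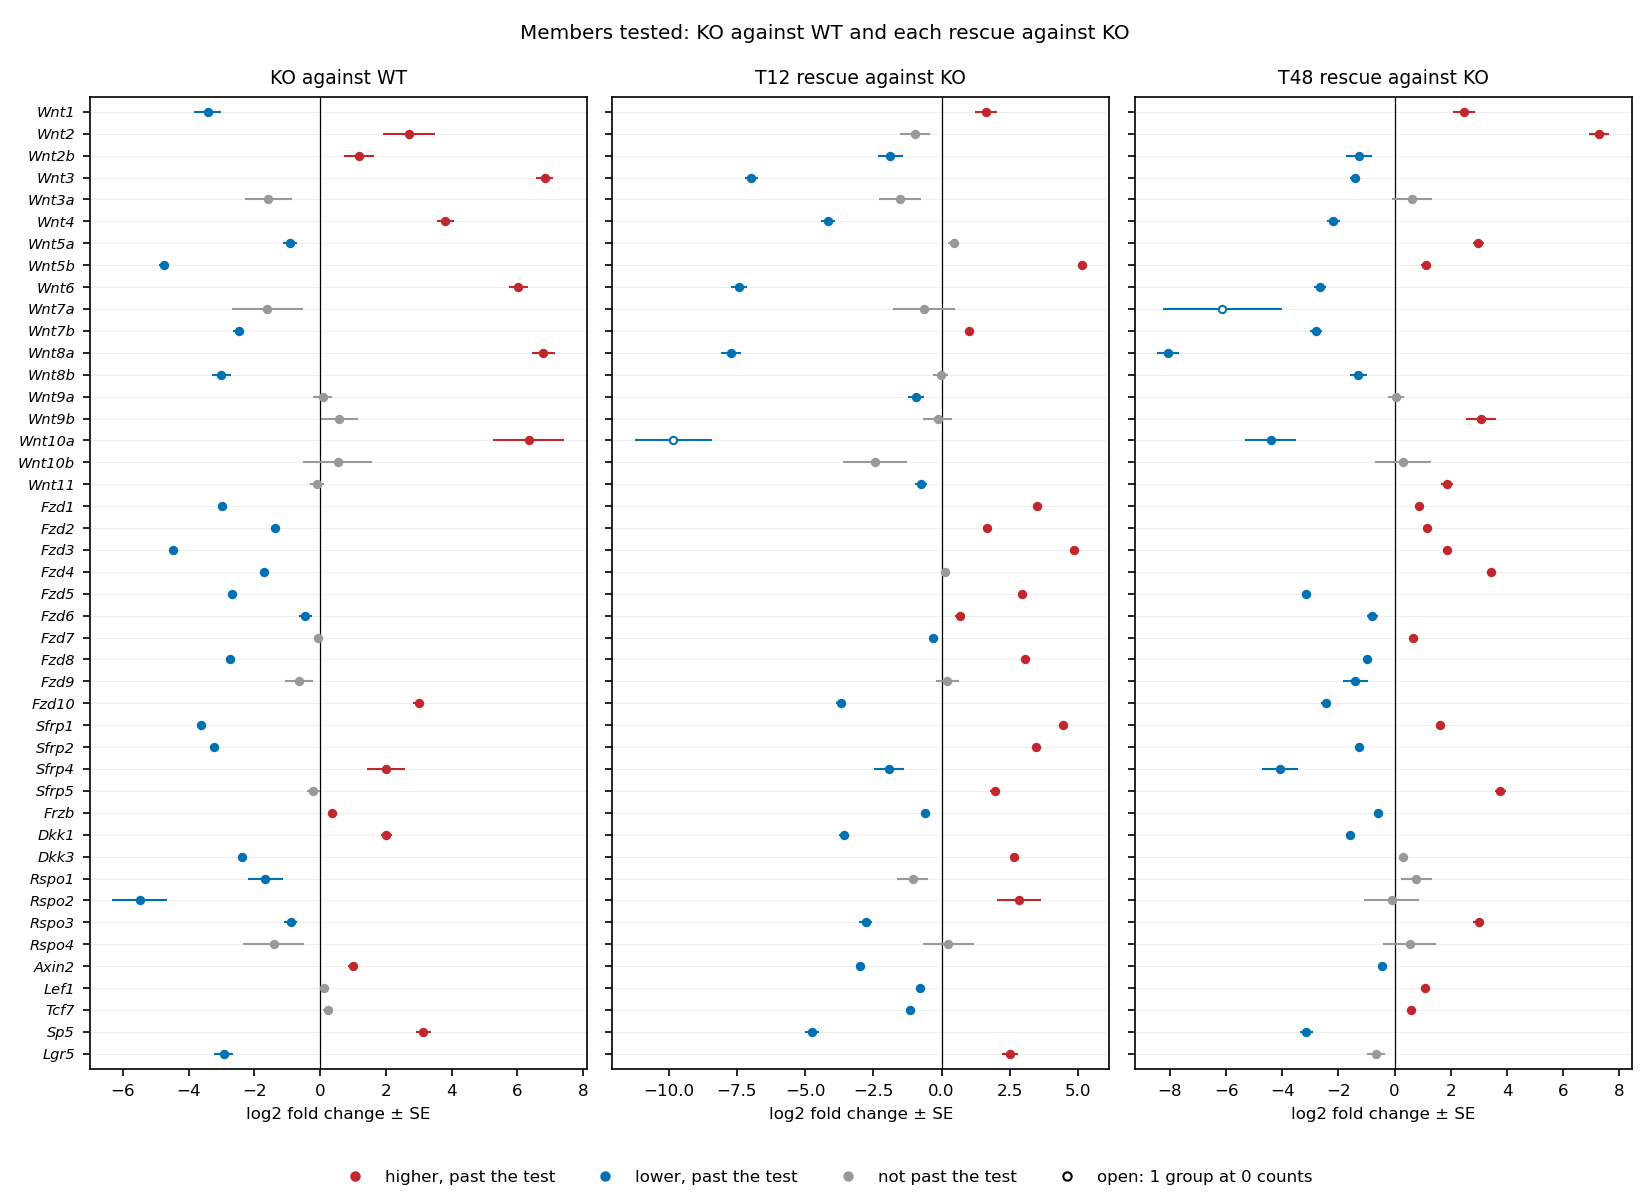
Log2 fold change ± SE (n = 2 libraries per group) of the 44 members tested, for KO against WT and for each rescue against KO, with red points higher, blue points lower and grey points not past the test. An open point has 1 group at 0 counts and its size is no estimate. Most receptors lie left of 0 in KO against WT, and Axin2, Lef1, Tcf7 and Sp5 all lie left of 0 in T12 rescue against KO.

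Of the 3 other groups the T12h rescue had the fewest genes and the fewest members that differed from WT. Higher members were Wnt5b, Fzd1, Fzd2, Fzd3, Fzd5, Fzd8, Sfrp1 and Sfrp5. Without WT library a, 3 were higher and 10 lower, against 8 and 17 with all libraries. The lower genes that stayed past the test whichever library was left out were Wnt7b, Wnt8b, Fzd4, Dkk1, Rspo3, Axin2, Lef1, Tcf7 and Sp5, and the higher ones were Fzd1, Sfrp1 and Sfrp5. Wnt5b at T12h was 0.42 ± 0.12 (adjusted p = 0.0386) against WT and its call was lost without any 1 of the 4 libraries, at 0.31 to 0.51. With all libraries kept, the call of Wnt5b was also lost under upper-quartile scaling (edgeR adjusted p = 0.057) and both limma fits on FPKM.

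**Figure D5:**
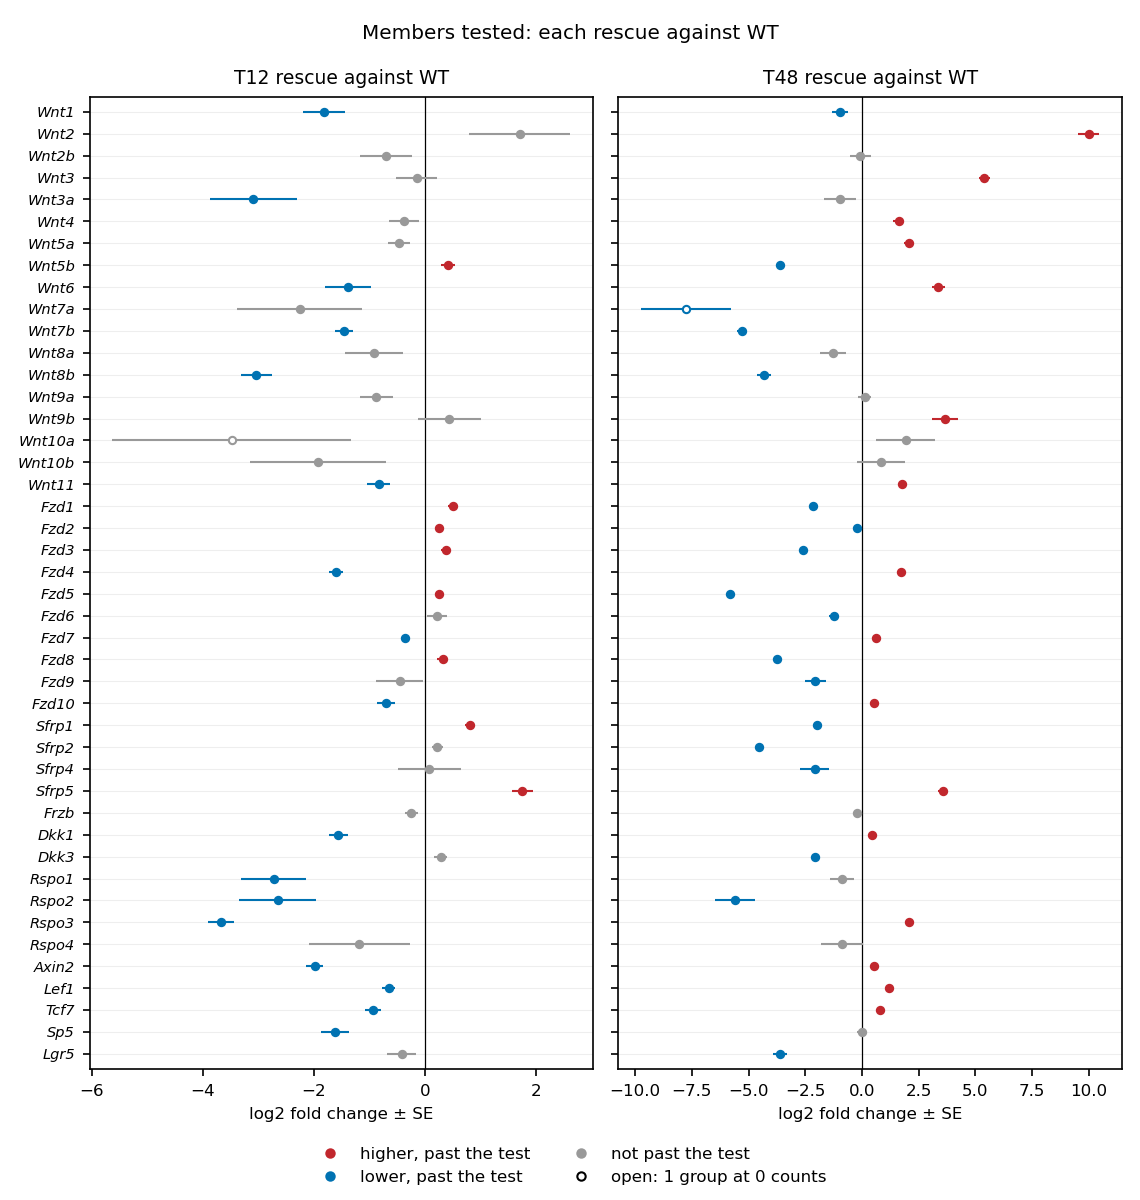
Log2 fold change ± SE (n = 2 libraries per group) of the 44 members tested, for each rescue against WT, with red points higher, blue points lower and grey points not past the test. Open points have 1 group at 0 counts. At T12h the higher members lie within 2 log2 units of WT, while at T48h Wnt2, Wnt3, Wnt6, Wnt9b and Sfrp5 lie more than 3 units above it and Wnt7b, Wnt8b, Fzd5, Fzd8, Sfrp2, Rspo2 and Lgr5 are among those more than 3 units below.

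The rest of the pathway was read from 6 further lists. Of 10 genes of the cytoplasmic beta-catenin pathway 9 fell in the KO and none rose, beside 32.5% of all genes lower, and 9 were higher at T12h than in the KO, beside 32.9%. Both counts are read against the same KO libraries. The median log2 fold change in the KO was -0.31, beside 0.0041 for all genes. These changes were small, with a median absolute log2 fold change of 0.31 beside 0.75 for all genes. Ctnnb1, beta-catenin itself, stood at 1708 and 1818 CPM in WT, 1470.0 and 1408 in KO, 1884 and 1936 at T12h and 1580.0 and 1546 at T48h, a change of -0.29 ± 0.06 (adjusted p = 0.00106) in the KO. Gsk3b, the kinase that marks beta-catenin for destruction, fell by 0.38 ± 0.07 on the log2 scale (adjusted p = 0.000216) and Axin1, its scaffold, changed by -0.44 ± 0.09 (adjusted p = 0.00065). The change was larger for Apc2, a relative of the scaffold Apc, which stood at 13.1 and 15.2 CPM in WT, 5.87 and 7.72 in KO, 12.1 and 8.79 at T12h and 1.03 and 1.15 at T48h. It fell by 1.06 ± 0.22 on the log2 scale (adjusted p = 0.000922) in the KO and by 3.69 ± 0.26 on the log2 scale (adjusted p = 5.15e-08) at T48h against WT.

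Of 14 genes of Wnt secretion, co-receptors and receptor turnover, 9 rose and 3 fell in the KO, beside 31.9% of all genes higher and 32.5% lower. Ptk7, a polarity co-receptor, stood at 168 and 171 CPM in WT, 595 and 586 in KO, 188 and 170.4 at T12h and 387 and 404 at T48h, a rise of 1.80 ± 0.07 (adjusted p = 9.02e-11). Ror2, a receptor of Wnt5a, rose by 1.25 ± 0.11 (adjusted p = 3.28e-07), and Lrp6 fell by 0.92 ± 0.07 on the log2 scale (adjusted p = 5.46e-08). Wls, which carries all Wnts to the cell surface, stood at 83.8 and 90.0 CPM in WT, 156 and 152 in KO, 138 and 129.5 at T12h and 287 and 313 at T48h and was lowest in WT.

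Among 6 nuclear partners of beta-catenin 4 fell and 1 rose in the KO, 83.3% past the test beside 64.4% of all genes. Pygo1, which couples the complex to methylated histone H3, stood at 21.4 and 17.4 CPM in WT, 0.0879 and 0.378 in KO, 20.3 and 20.5 at T12h and 8.55 and 9.76 at T48h. It was nearly absent in the KO libraries, with a change of -6.61 ± 0.36 (adjusted p = 1.87e-09). At T48h its change from WT was -1.09 ± 0.24 (adjusted p = 0.00181). Tcf7l2 stood at 65.2 and 73.0 CPM in WT, 38.4 and 42.3 in KO, 102 and 106 at T12h and 26.1 and 28.1 at T48h, and this Tcf factor was above WT at T12h by 0.59 ± 0.09 (adjusted p = 0.000932).

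Of 9 other Wnt inhibitors, which act outside the cell, at the membrane or in the secretory pathway, 3 rose and 4 fell in the KO, 77.8% past the test beside 64.4% of all genes. Shisa2, which retains Frizzled proteins inside the cell, stood at 613 and 673 CPM in WT, 34.3 and 31.3 in KO, 903 and 802 at T12h and 40.4 and 40.0 at T48h, so WT and T12h were high and the KO and T48h low, with -4.29 ± 0.09 (adjusted p = 4.86e-13) in the KO. Apcdd1, a membrane inhibitor of Wnt signalling, was at 31.8 and 19.8 CPM in WT, 7.90 and 9.43 at T12h and 56.2 and 63.5 at T48h. At T48h it was 1.81 ± 0.19 (adjusted p = 1.38e-06) above the KO.

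Of 12 other target genes 9 were tested, with 3 higher and 2 lower in the KO, 55.6% beside 64.4% of all genes. The streak gene T was at 4.44 and 3.59 CPM in the KO and 0.0185 to 0.595 elsewhere, while Nkd2, a feedback inhibitor, fell by 3.51 ± 0.29 on the log2 scale (adjusted p = 1.55e-07) and Myc changed by -1.14 ± 0.12 (adjusted p = 1.13e-06). Genes of this list thus moved in both directions in the KO. Of 10 planar polarity genes 4 rose and 4 fell in the KO, 80% past the test beside 64.4% of all genes, and between the rescues 6 were higher and 4 lower at T48h, 100% beside 50.4%. Celsr2, an atypical cadherin of that system, stood at 170.3 and 176 CPM in WT, 28.1 and 25.6 in KO, 234 and 194 at T12h and 8.39 and 10.1 at T48h, and Dact1, a Dishevelled-binding protein, at 6.43 and 5.64 CPM in WT, 5.21 and 6.88 in KO, 5.63 and 5.68 at T12h and 74.2 and 79.0 at T48h. Celsr2 changed in the KO by -2.68 ± 0.11 (adjusted p = 1.06e-10), and Dact1 at T48h was 3.66 ± 0.16 (adjusted p = 3.16e-10) above WT.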

How the data were processed

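RNA sequencing libraries of 16 samples were deposited as 2 tables of 28432 loci. The authors' tools were Cufflinks 2.2.1, TopHat2 2.1.1, deepTools and SAMtools 1.5, on mm10, per the submitters' processing notes. Neither the annotation nor the use of strand is given there, so overlapping and antisense genes cannot be told apart. The first deposited table gives estimated counts for each locus, per the file headers, and its values were multiples of 0.630 to 1.29 by column, which was divided out. Within a tolerance of 0.02, 94.5% to 95.4% of values were then whole, and the rest were rounded. The second deposited table gives FPKM, per the file headers, used here to compare levels between genes. The other 112 columns of per-sample values were not used.

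Columns name the group but not the duplicate, so technical pairs were found by a chi-square of counts, 1.61 to 1.86 per degree of freedom within pairs and 9.67 to 18.7 between them. Loci without a name (5143, with 3.16% to 6.12% of counts) and 21 loci listed at 0 in a column but over 100 in another of the group were left out. Of 23268 loci kept, 397 join several symbols. edgeR 4.0.16 in R 4.3.3 fitted all 4 groups together (quasi-likelihood test, TMM scaling, filterByExpr, Benjamini-Hochberg over 16115 genes, 4 residual degrees of freedom, common biological variation of 12%). The procedure was run on simulated counts with few changed genes, evenly up and down, and the same spread for every gene. That run does not cover scaling where most genes change, and 64.4% of genes passed in the KO against WT. Alternatives used other scalings, with TMM without chromosome 8 among them, no filter, 1 column per replicate and only the groups compared. Further alternatives were leaving out each library, a replicate block (chosen after seeing the data), DESeq2 1.42.0, and limma 3.58.1 on log2(FPKM + 1) or log2(FPKM + 0.1). Intervals and floors of 3 counts cover counting error only, and a floor covers only that of the group at 0 counts.

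The members and lists were chosen with earlier results of these data known. Values are given for every library for the 34 members that reached 5 CPM in a group and passed a test, and up to 4 genes per further list and comparison are named by smallest adjusted p. Sequences are from RefSeq, with exons from GENCODE.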

Additional observations from a re-analysis of the deposited data

Results flagged for a closer look

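For 10 members the early and the late rescue moved in opposite directions from the KO, each past edgeR's test, and the direct test between the rescues also passed. They are 22.7% of the 44 members tested, beside 5.64% of all genes. Both changes are read against the same KO libraries, so the difference between the rescues is the value to read. Members lower at T48h than at T12h were Fzd5, with a difference of -6.09, Sfrp2, with -4.75, Fzd8, with -4.06, Wnt7b, with -3.83, and Fzd6, with -1.47 on the log2 scale. Members higher at T48h than at T12h were Rspo3, with 5.77, Wnt11, with 2.61, Lef1, with 1.85, Tcf7, with 1.74, and Fzd7, with 0.96. The first set includes the eye field receptor Fzd5 and the forebrain genes Fzd8 and Wnt7b, and the second includes the nuclear factors Lef1 and Tcf7. Of these 10, the change of Fzd6 from the KO to T12h was lost without T12h library b (adjusted p = 0.0537). That of Fzd7 was lost without KO library a (adjusted p = 0.0529), and that of Wnt11 without T12h library a (adjusted p = 0.0961).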

How the results depend on the processing

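A fit with a replicate block for library a or b, added after seeing the data, called 30 members in the KO against WT (32 without the block), 33 (33) and 37 (36) in the early and late rescue against the KO, 36 (37) between the rescues, and 25 (25) and 33 (34) in the early and late rescue against WT. The block took the calls of Fzd6 and Wnt2b in the KO against WT (adjusted p = 0.0602 and 0.0532), Wnt3a between the rescues (0.0543) and Wnt1 at T48h against WT (0.0530). The labels number the duplicates in each group, but no label ties libraries a and b across groups. The differences between a and b correlated across the 16115 genes at r of -0.0535 to 0.0433 between groups. A correlation over all genes cannot show an effect shared by few of them, and such an effect was not tested. Over the 6 comparisons, 197 pairs of a member and a comparison passed the test, of which 151 kept their call and direction under every alternative run and none reversed. With all libraries kept, 24 lost the call under at least 1 alternative, and 43 lost it when a library was left out. Of 67 pairs that did not pass, 23 passed under some alternative. The counts of members called stayed within 1.5 times the reported count except for the T12h rescue against WT. There, leaving out 1 library gave 13 to 17 members against 25, and 1099 to 1585 genes against 2299. Leaving out a library removes 1 of 2 in a group, and the lone library is then assumed to vary like the other groups. Upper-quartile scaling turned the split at T48h against WT from 3875 higher and 3791 lower to 3066 and 4807, and shifted the median of all genes by -0.123 there and by -0.143 for T48h against the KO. Without the filter on low counts that median shifted by -0.101 for T12h and -0.178 for T48h, both against the KO. Members under 1 CPM, among them Wnt7a, Wnt10b and Rspo4, are limited by depth.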
